A study of Mus musculus with 121 samples.

Results

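The YY1 peaks described here are those that the authors listed as emerging in early G1, the first part of interphase after a cell leaves mitosis. All 10643 regions of that list were taken, of 19683 regions in the lists of 5 stages. Prometaphase had 681 regions, ana/telophase 5713, early G1 10643, mid-G1 2403 and late G1 243. The early G1 list shared no base with any other stage list, and 10576 of its regions were 400 bp wide. The other 67 were wider, up to 1097 bp at chr7:30022899-30023995. Positions are in the mouse build mm9.

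YY1 is a zinc finger transcription factor that binds promoters and enhancers and can hold 2 such elements together by pairing with itself. Most transcription factors leave chromosomes in part or in full during mitosis and return while the cell divides and enters G1, when loops and domains of chromatin are rebuilt as well. CTCF is the factor that stops loop extrusion by cohesin, of which RAD21 is a subunit. LDB1 is a cofactor that joins enhancers to promoters in erythroid cells through GATA1 and TAL1. Acetylation of histone H3 at lysine 27 (H3K27ac) marks active promoters and enhancers.

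The stage lists came from an MD-mCherry subline of G1E-ER4, a mouse erythroid progenitor line derived from embryonic stem cells that lacks its own GATA1 and carries a hormone-inducible one. The cells were synchronized with nocodazole for 7 h and sorted by stage, and YY1 was measured by ChIP-seq in 3 libraries per stage. The features set beside these peaks came from another subline, YY1-AID, in which YY1 carries a degron that leads to its breakdown in auxin. Asynchronous YY1-AID cells were either given auxin, for 4 h by the series' design text, or left untreated, and YY1 (3 libraries per condition, and 2 with a second antibody), CTCF, RAD21, LDB1 and H3K27ac (2 each) were measured. YY1 was also measured in CTCF-AID cells with and without auxin (2 libraries each), which carry CTCF-AID in their sample names and the YY1-AID genotype in another label. Loops and boundaries came from Micro-C of YY1-AID cells, as lists merged over auxin-treated and untreated cells, for mid-G1 cells (nocodazole for 7 h, with or without auxin for 4 h, by the design text) and for asynchronous cells. The sample labels of the second antibody and of Micro-C name auxin without a time. All these are cell lines grown as sublines, so differences between the sublines and between the stages cannot be told apart where the lists come from different ones. No RNA of the MD-mCherry subline was used, so its erythroid identity was not checked.

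Each condition had 1 deposited peak list, without scores or read counts, so the depth is unknown and there is no error between replicates. Intervals are Wilson 95% intervals of a share of peaks and cover counting error only. Differences between lists were tested across peaks with Fisher's exact test, two-sided, and the p-values of all 67 such tests were adjusted together by Benjamini-Hochberg, with a threshold of 0.05. Peaks are not replicates, and neighbouring peaks are not independent. After auxin 3713 YY1 peaks were called, against 41163 in untreated cells with the same antibody, and 2044 against 9164 with the second antibody.

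The early G1 peaks were split between acetylated chromatin and chromatin with no mark measured here. H3K27ac peaks of untreated asynchronous cells covered 5810 early G1 peaks (54.6%, interval 53.6 to 55.5). RAD21 was found at 2112 (19.8%), LDB1 at 1908 (17.9%) and CTCF at 1485 (14.0%). The largest class, 4098 peaks (38.5%), had none of these 4, and 2898 (27.2%) had H3K27ac alone. H3K27ac with LDB1 was found at 945 peaks, H3K27ac with RAD21 and LDB1 at 579, H3K27ac with CTCF and RAD21 at 518, H3K27ac with RAD21 at 425, and CTCF with RAD21 but without acetylation at 398. All 4 met at 135 peaks. Of the CTCF peaks among them 71.7% also had RAD21, and 49.6% of the RAD21 peaks had no CTCF. LDB1 was mostly on acetylated chromatin, with 1705 of 1908 (89.4%) under an H3K27ac peak.

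**Figure D1:**
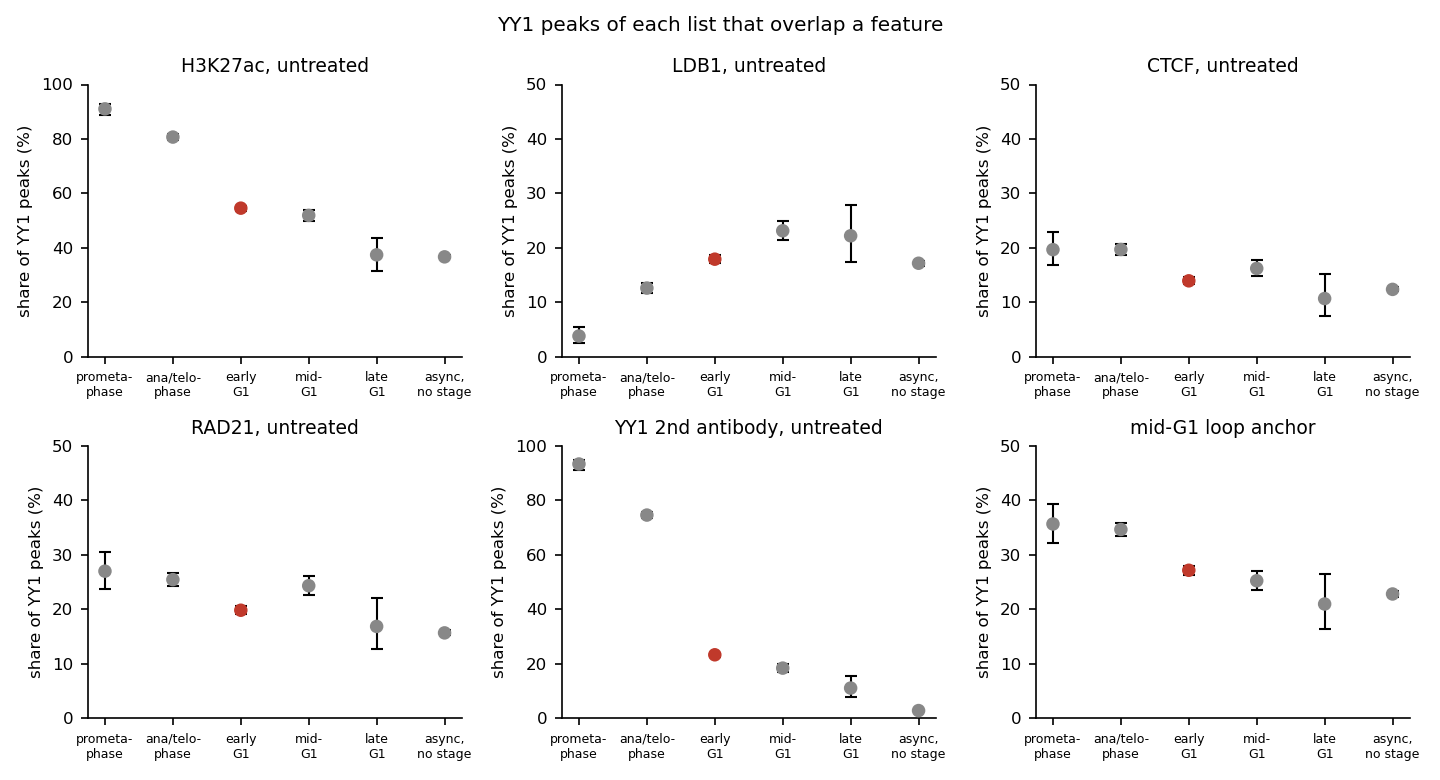
Share of YY1 peaks (%) that overlap a feature of untreated asynchronous YY1-AID cells or a mid-G1 loop anchor, for the 5 stage lists in order of time and for asynchronous YY1 peaks of no stage list. Points are shares, bars are Wilson 95% intervals, and early G1 is in red. H3K27ac was at 54.6% of early G1 peaks, between 80.7% in ana/telophase and 51.9% in mid-G1, whereas LDB1 was at 17.9% of early G1 peaks, between 12.6% and 23.1%.

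Set against the list of the stage before, the early G1 peaks lay on less acetylated chromatin and more often on LDB1. H3K27ac was found at 54.6% of early G1 peaks, against 80.7% of ana/telophase peaks (odds ratio 0.288, adjusted exact p = 6.5e-253, Fisher's exact test), and the share was lower in early G1 on 20 of 20 chromosomes. LDB1 was found at 17.9% of early G1 peaks, against 12.6% of ana/telophase peaks (odds ratio 1.51, adjusted exact p = 1.13e-18), and the share was higher in early G1 on 18 of 20 chromosomes. The loop extrusion proteins went the other way. CTCF was at 14.0% of early G1 peaks, against 19.7% of ana/telophase peaks (odds ratio 0.661, adjusted exact p = 7.63e-21), and lower on 20 of 20 chromosomes. RAD21 was at 19.8% of early G1 peaks, against 25.5% of ana/telophase peaks (odds ratio 0.725, adjusted exact p = 4.3e-16), and lower on 18 of 20 chromosomes. Peaks with none of the 4 made up 38.5% of the early G1 list and 16.2% of the ana/telophase list.

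The gap in LDB1 was wider among acetylated peaks alone. There LDB1 was at 29.3% of early G1 peaks (28.2 to 30.5), against 14.6% of ana/telophase peaks (13.6 to 15.6). RAD21 was then at 28.5% of early G1 peaks and 29.1% of ana/telophase peaks, with intervals that overlap, and CTCF at 16.6% of early G1 peaks and 21.7% of ana/telophase peaks. Among peaks without acetylation LDB1 was at 4.20% of early G1 and 4.35% of ana/telophase peaks. These splits were made after the values had been seen and were not tested.

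Set against the stage after, the early G1 peaks had fewer of all 3 chromatin proteins. LDB1 was at 17.9% of early G1 peaks, against 23.1% of mid-G1 peaks (odds ratio 0.726, adjusted exact p = 1.45e-08, Fisher's exact test), and lower on 19 of 20 chromosomes. RAD21 was at 19.8% of early G1 peaks, against 24.3% of mid-G1 peaks (odds ratio 0.769, adjusted exact p = 2.3e-06), and CTCF at 14.0%, against 16.2% (odds ratio 0.837, adjusted exact p = 0.00656). RAD21 was lower on 18 of 20 chromosomes, but CTCF on only 14. The difference in CTCF no longer passed among peaks that were also in the untreated asynchronous YY1 list (odds ratio 0.873, adjusted exact p = 0.0749). H3K27ac was at 54.6% of early G1 peaks, against 51.9% of mid-G1 peaks (odds ratio 1.11, adjusted exact p = 0.0257), and higher on only 13 of 20 chromosomes. That direction depended on the width of the intervals. With YY1 and H3K27ac peaks reduced to 200 bp at their midpoints the odds ratio was 0.809 (adjusted exact p = 0.00171), and the share itself was 12.6% of early G1 peaks, since H3K27ac peaks have a median width of 1440 bp. In the LDB1 share of acetylated peaks the early G1 list, at 29.3%, lay between ana/telophase, at 14.6%, and mid-G1, at 38.6%.

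The last comparison used 26966 YY1 peaks of untreated asynchronous YY1-AID cells that overlap no stage list. These were chosen as peaks of the YY1-AID subline, and the early G1 peaks were not. H3K27ac was at 54.6% of early G1 peaks, against 36.7% of these (odds ratio 2.07, adjusted exact p = 1.96e-217, Fisher's exact test), RAD21 at 19.8%, against 15.7% (odds ratio 1.33, adjusted exact p = 2.73e-21), and CTCF at 14.0%, against 12.4% (odds ratio 1.15, adjusted exact p = 7.35e-05). H3K27ac and RAD21 were each higher on 19 of 20 chromosomes and CTCF on 16. LDB1 was at 17.9% of early G1 peaks and 17.2% of the peaks of no stage list, a difference of 0.75 percentage points (-0.10 to 1.61, adjusted exact p = 0.109). An alternative chosen after seeing the data used only early G1 peaks that are also in the untreated asynchronous list. LDB1 was at 22.9% of them and the odds ratio was 1.43 (adjusted exact p = 6.73e-26). That comparison is not balanced, since these early G1 peaks were called in both sublines and the peaks of no stage list overlap no MD-mCherry list. The share of the second antibody in untreated cells rose under the same choice, from 23.3% to 32.5% of early G1 peaks. With all early G1 peaks the odds ratio was 0.990 (adjusted exact p = 0.784) with an overlap of at least 50% of the YY1 peak. With 200 bp midpoints it was 0.992 (adjusted exact p = 0.826). Among acetylated peaks alone LDB1 was at 29.3% of early G1 peaks (28.2 to 30.5), against 37.3% of peaks of no stage list (36.3 to 38.2). Among peaks without acetylation it was at 4.20%, against 5.52%. RAD21 was at 28.5% of acetylated early G1 peaks, against 25.0% of acetylated peaks of no stage list, and CTCF at 16.6%, against 13.4%. Without acetylation RAD21 was at 9.41%, against 10.3%, and CTCF at 10.8%, against 11.8%, both with intervals that overlap. The higher shares of RAD21 and CTCF in early G1 were thus seen among acetylated peaks only. These splits were made after the values had been seen and were not tested.

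**Figure D2:**
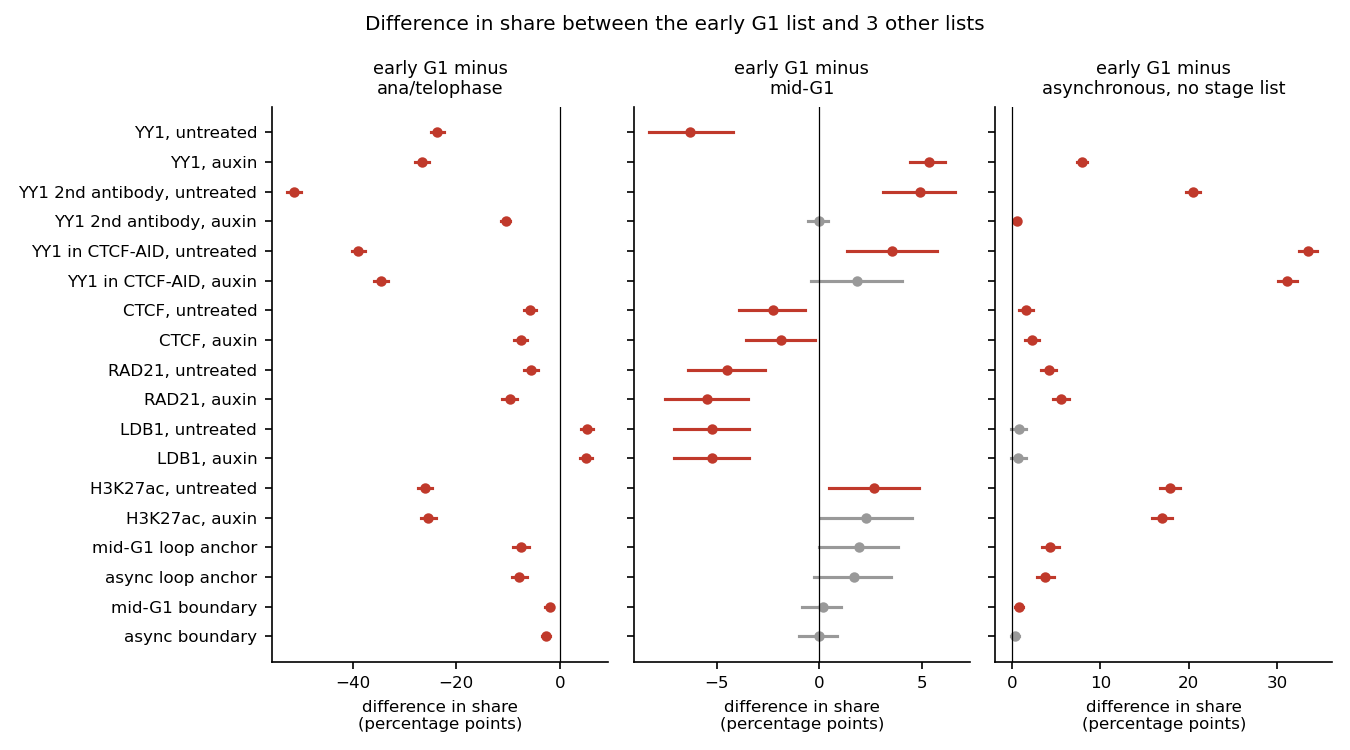
Difference in the share of peaks that overlap each feature (percentage points), early G1 minus ana/telophase, minus mid-G1, and minus asynchronous peaks of no stage list, with the zero line in each panel and a separate horizontal scale. Points are differences, lines are 95% intervals by Newcombe's method, red marks an adjusted p under 0.05, and the untreated YY1 list is left out of the last panel, where it is fixed by the choice of peaks. LDB1 stood above ana/telophase by 5.31 points and below mid-G1 by a difference of -5.21 points.

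The share of early G1 peaks found again in asynchronous cells was not the same for each antibody and subline. Untreated YY1-AID cells had a YY1 peak at 6803 of 10643 early G1 peaks (63.9%), against 87.6% of ana/telophase peaks (odds ratio 0.251, adjusted exact p = 1.89e-247, Fisher's exact test) and 70.2% of mid-G1 peaks (odds ratio 0.752, adjusted exact p = 8.36e-09). With the second antibody the share was 23.3% of early G1 peaks, against 74.6% of ana/telophase peaks (odds ratio 0.103, difference -51.3 percentage points, -52.7 to -49.9) and 18.4% of mid-G1 peaks (odds ratio 1.35, adjusted exact p = 2.57e-07). In untreated CTCF-AID cells YY1 was at 46.4% of early G1 peaks, against 85.3% of ana/telophase peaks (odds ratio 0.149) and 42.9% of mid-G1 peaks (odds ratio 1.15, adjusted exact p = 0.00262). The second antibody gave 9164 peaks and the CTCF-AID cells 16355, both fewer than the first antibody in YY1-AID cells.

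Over the 6 asynchronous YY1 lists together, 8200 early G1 peaks (77.0%) were in at least 1 list and 2443 (23.0%) in none. All 6 lists shared 9 of the early G1 peaks. The 2443 peaks seen in no asynchronous list still had H3K27ac at 46.7%, against 57.0% of those in at least 1 list. They were lower in LDB1 (6.84% against 21.2%), RAD21 (9.82% against 22.8%) and CTCF (8.64% against 15.5%). Their share at mid-G1 loop anchors was 24.6%, against 28.0%.

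A part of the early G1 peaks lay close beside a peak of the stage before. In all, 1306 (12.3%, interval 11.7 to 12.9) had their midpoint within 2 kb of the midpoint of an ana/telophase peak without touching it, against 6.53% of mid-G1 peaks and 2.88% of peaks of no stage list. These 1306 were acetylated at 90.5%, against 49.6% of the early G1 peaks farther away, and lay at mid-G1 loop anchors at 42.5%, against 25.0%. In untreated YY1-AID cells a YY1 peak was called at 24.5% of them, against 69.4% of those farther away. The limit of 2 kb was chosen after the values had been seen, and these differences were not tested. Whether a peak that close is a site of its own or the flank of its neighbour was not tested. The median distance from the midpoint of an early G1 peak to the nearest midpoint of an H3K27ac peak, which can lie inside a broad H3K27ac peak, was 1668 bp, against 587 bp for ana/telophase, 1769 bp for mid-G1 and 3496 bp for peaks of no stage list.

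Auxin removed most of these sites from the YY1 peak list. Of the 6803 early G1 peaks with a YY1 peak in untreated cells, 429 (6.31%, interval 5.75 to 6.91) also had one after 4 h of auxin, where 7.55% of all untreated YY1 peaks did. The share was 38.7% for ana/telophase peaks (odds ratio 0.107, difference -32.4 percentage points, -33.8 to -30.9) and 1.90% for mid-G1 peaks (odds ratio 3.48, adjusted exact p = 5.34e-15, Fisher's exact test). With the second antibody 117 of 2483 (4.71%) were kept, against 15.5% of ana/telophase peaks (odds ratio 0.269, adjusted exact p = 3.13e-45) and 5.42% of mid-G1 peaks (odds ratio 0.863, adjusted exact p = 0.60, difference -0.71 points, -3.34 to 1.27), where 19.6% of all untreated peaks of that antibody were kept.

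The other marks at the same sites were mostly called again after auxin. H3K27ac was kept at 97.7% of the early G1 peaks that had it (5675 of 5810), where 91.8% of all H3K27ac peaks were kept, CTCF at 94.5% (all CTCF peaks 92.8%), RAD21 at 92.5% (all RAD21 peaks 92.6%) and LDB1 at 92.5% (all LDB1 peaks 87.1%). A share over YY1 peaks and a share over all peaks of a factor are not the same measure, as 1 broad peak can cover several YY1 peaks. For CTCF, RAD21 and LDB1 the kept share differed from neither ana/telophase nor mid-G1 past the threshold, and the intervals of these 6 differences reached from -3.54 to 3.92 percentage points. CTCF against ana/telophase, 94.5% against 92.5% with an adjusted exact p of 0.0679, passed with an overlap of at least 50% of the YY1 peak (odds ratio 1.62, adjusted exact p = 0.0273) and with 200 bp midpoints (odds ratio 1.63, adjusted exact p = 0.0277). For H3K27ac it was 97.7% in early G1, against 98.5% in ana/telophase (odds ratio 0.658, adjusted exact p = 0.00656), and with 200 bp midpoints this no longer passed (adjusted exact p = 0.112). In CTCF-AID cells, where auxin is aimed at CTCF, YY1 was kept at 87.9% of early G1 peaks, where 83.5% of all YY1 peaks of those cells were kept. That was below ana/telophase at 97.5% (odds ratio 0.185, adjusted exact p = 9.36e-80) and above mid-G1 at 84.1% (odds ratio 1.38, adjusted exact p = 0.00157). Kept shares leave out peaks called only after auxin. RAD21 was at 19.8% of early G1 peaks untreated and 24.9% after auxin, and YY1 in CTCF-AID cells at 46.4% and 51.2%. CTCF was at 14.0% and 15.55%, H3K27ac at 54.6% and 55.2%, and LDB1 at 17.9% and 17.5%. The whole RAD21 list also rose, from 39745 to 50028 peaks, and that of YY1 in CTCF-AID cells from 16355 to 20074.

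Some early G1 sites had a YY1 peak in auxin-treated cells and none in untreated cells. By their peaks of the first antibody, 434 early G1 peaks were in the auxin list only, 429 in both, 6374 in the untreated list only and 3406 in neither. The auxin list held 605 peaks that the untreated list lacked, and 434 of these (71.7%, interval 68.0 to 75.2) were on the early G1 list, 48 on the ana/telophase list, 35 on the mid-G1 list, 12 on the late G1 list, 4 on the prometaphase list and 72 on none. Of all 3713 peaks of the auxin list 23.1% were on the early G1 list, and of the 3108 also in the untreated list 13.6% were. Such sites made up 4.08% of the early G1 list, 0.840% of the ana/telophase list and 1.46% of the mid-G1 list, and 4.94% of the small late G1 list. Only peaks outside the untreated list can be such sites. Counted over those alone, they were 434 of 3840 in early G1, 48 of 710 in ana/telophase and 35 of 716 in mid-G1. In late G1 they were 12 of 137, and in prometaphase 4 of 11. The 434 early G1 sites were spread over all 20 chromosomes, with 9 on chromosome 12 and 56 on chromosome 1.

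These 434 sites had few of the features measured. H3K27ac was at 3 of them (0.691%, interval 0.235 to 2.01), against 59.6% of the peaks in the untreated list only, 43.8% of those in both and 53.3% of those in neither. CTCF was at 4, RAD21 at 2 and LDB1 at 1. The second antibody had a peak at 0 of 434 with or without auxin. A count of 0 allows a share of up to 0.691% if the limit is set at 3 counts, and the Wilson interval reaches 0.877%. In untreated cells that antibody had a peak at 32.5% of the peaks in the untreated list only, 32.4% of those in both and 8.07% of those in neither. YY1 in untreated CTCF-AID cells was at 50 of the 434 (11.5%). It was at 63.3% of the peaks in the untreated list only, 62.7% of those in both and 17.3% of those in neither. Like the 434, the peaks in neither are outside the untreated list. The median distance of the 434 to an H3K27ac peak, from midpoint to midpoint, was 83195 bp, against 1176.5 bp for the peaks in the untreated list only, 3568 bp for those in both and 2230 bp for those in neither. None of the 434 was within 2 kb of an ana/telophase peak (midpoints), against 4.43% of the peaks in both lists, 4.72% of those in the untreated list only and 28.9% of those in neither. The lack of H3K27ac was seen in the other stage lists too. H3K27ac was at 1 of 48 such sites in ana/telophase, 0 of 35 in mid-G1, 0 of 12 in late G1 and 0 of 4 in prometaphase. The lack of the second antibody was not shared by all lists. In untreated cells that antibody had a peak at 5 of the 48 ana/telophase sites and 2 of the 4 prometaphase sites, and at 0 in mid-G1 and late G1. The classes were formed after the values had been seen and were not tested, and it was not tested whether the 434 sites bind YY1 or are enriched by the first antibody without it.

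**Figure D3:**
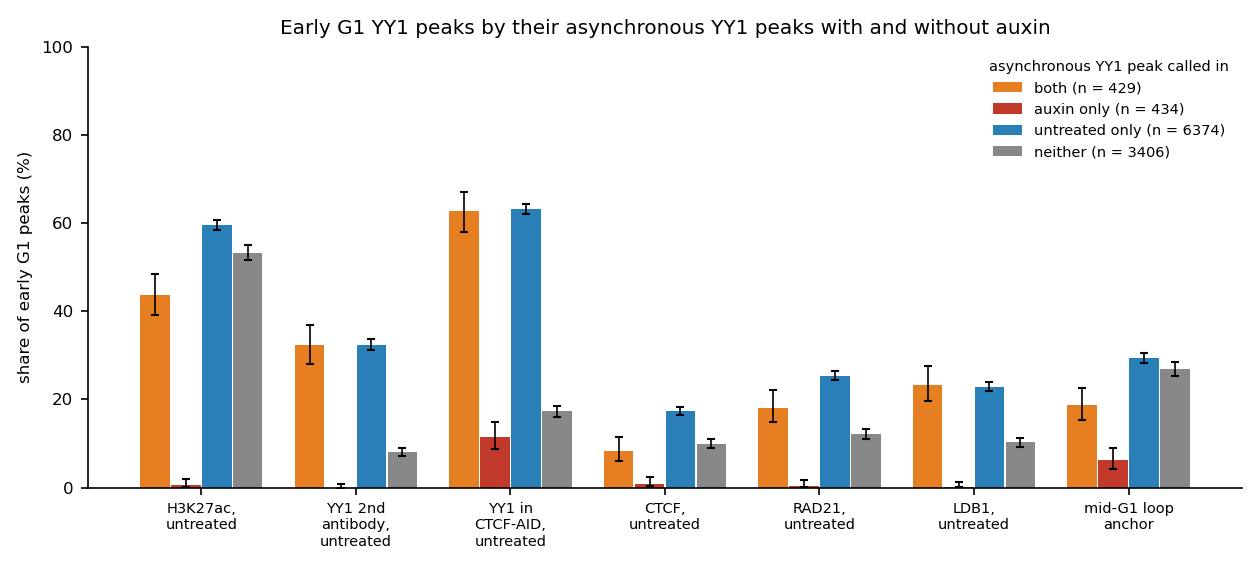
Share of early G1 peaks (%) that overlap each feature, for 4 classes by whether asynchronous YY1-AID cells had a YY1 peak (first antibody) in both conditions, after auxin only, untreated only, or in neither. Bars start at 0, whiskers are Wilson 95% intervals, and n is in the legend. The 434 peaks found after auxin only had H3K27ac at 0.691% and no peak of the second antibody.

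The early G1 list was dense on chromosome 3, which held 1132 of its peaks (10.6%), the largest number of any chromosome, and chromosome 1 held 1045 (9.82%). Chromosome 1 held 7.74% of the untreated asynchronous YY1 peaks of YY1-AID cells. In the other stage lists chromosome 3 held 6.02% in prometaphase, 8.09% in ana/telophase, 9.45% in mid-G1 and 9.05% in late G1. In the untreated asynchronous lists of the YY1-AID and CTCF-AID cells it held 4.98% of YY1 peaks, 4.55% of YY1 peaks of the second antibody, 5.21% of YY1 peaks in CTCF-AID cells, 4.72% of CTCF, 5.05% of RAD21, 5.34% of LDB1 and 4.94% of H3K27ac peaks. All stage lists came from the MD-mCherry subline, so subline and stage cannot be told apart here, and the number of copies of chromosome 3 was not tested.

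The early G1 peaks of chromosome 3 had lower shares in the asynchronous YY1 lists, a difference that was described and not tested. The second antibody had a peak in untreated cells at 6.71% of them (5.40 to 8.32), against 25.3% of early G1 peaks on other chromosomes (24.4 to 26.2). Chromosome 3 was low for that antibody in the neighbouring lists as well, with 56.1% of its ana/telophase peaks (74.6% of the whole list), 4.41% of its mid-G1 peaks (18.4%) and 1.22% of its peaks of no stage list (2.84%). For early G1 peaks on chromosome 3 and on other chromosomes, the shares were 51.9% and 65.4% for YY1 of the first antibody, 24.1% and 49.1% for YY1 in CTCF-AID cells, and 43.7% and 55.9% for H3K27ac. Some single chromosomes were low too. H3K27ac was at 46.3% of early G1 peaks on chromosome 1 and 44.0% on X. Untreated YY1 of the first antibody was at 55.3% on X, and the second antibody at 18.0% on chromosome 1. Chromosome 3 was the lowest for each of these. Loop anchors were at 25.9% of chromosome 3 peaks and 27.3% of the others, with intervals that overlap. Without chromosome 3 the early G1 list still had less H3K27ac and more LDB1 than ana/telophase and less LDB1 and RAD21 than mid-G1, all past the threshold.

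**Figure D4:**
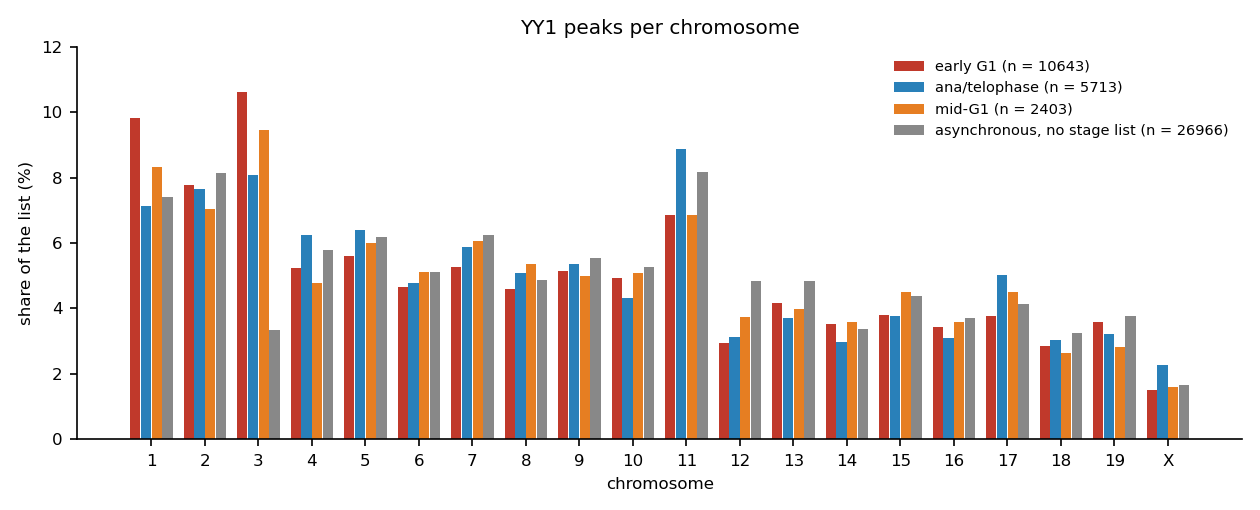
Share of each list (%) on each chromosome for early G1, ana/telophase and mid-G1 peaks and for asynchronous YY1 peaks of no stage list, with the number of peaks in the legend. Chromosome 3 held 10.6% of the early G1 list, against 8.09% of ana/telophase, 9.45% of mid-G1 and 3.34% of the peaks of no stage list.

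Many early G1 peaks shared a window with another. The same count was not made for the other lists, so it is not known whether this was more than in them. In windows of 100 kb, 6082 held at least 1, and 2463 held 2 or more, which together contained 7024 of the 10643. At least 5 were found in 246 windows, 51 of them on chromosome 3. The 5 windows with the most were all on chromosome 3. The first, chr3:137600001-137700000, held 14 early G1 peaks, of which 10 were acetylated, 6 were at a mid-G1 loop anchor, 4 were in the untreated YY1 list and 0 in the list of the second antibody, beside 8 ana/telophase peaks and 1 mid-G1 peak. The second, chr3:95100001-95200000, held 13, of which 11 were acetylated and 6 were in the untreated list. The windows chr3:96300001-96400000 and chr3:146000001-146100000 held 11 each, of which 7 were acetylated in each. The window chr3:97700001-97800000 also held 11, but only 1 was acetylated, 1 was in the untreated YY1 list, and no other stage list had a peak in it. Outside chromosome 3 the densest were chr14:118500001-118600000 and chr19:44300001-44400000 with 10 each, which were named after their values were seen. In the first of these all 10 were in the untreated list.

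Early G1 peaks lay at loop anchors less often than those of the stage before. A mid-G1 anchor, 5 or 10 kb wide, covered 2893 early G1 peaks (27.2%), against 34.7% of ana/telophase peaks (odds ratio 0.703, adjusted exact p = 9.43e-23, Fisher's exact test) and 22.8% of peaks of no stage list (odds ratio 1.26, adjusted exact p = 2.94e-18). Against mid-G1 peaks, at 25.3%, the difference was 1.92 percentage points (-0.041 to 3.82, adjusted exact p = 0.0721). Acetylated early G1 peaks were at an anchor in 35.8%, against 16.9% of those without acetylation. In ana/telophase these shares were 38.2% and 20.04%. Within each class the gap to early G1 was thus narrower than in the whole lists, with intervals that overlap. In mid-G1 the shares were 31.7% and 18.3%, and among peaks of no stage list 28.3% and 19.6%. Against both of these lists early G1 was higher with acetylation and lower without it. This split was not tested. Boundaries between domains, as 10 kb bins of mid-G1 cells, covered 4.82% of early G1 peaks, against 6.81% of ana/telophase peaks (odds ratio 0.693, adjusted exact p = 3.05e-07), 4.66% of mid-G1 peaks (adjusted exact p = 0.829, difference 0.16 points, -0.84 to 1.04) and 4.07% of peaks of no stage list (odds ratio 1.19, adjusted exact p = 0.00213).

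Seen from the loops, early G1 peaks were at 1 or both anchors of 3341 of 14155 mid-G1 loops (23.6%) and at both anchors of 493 (3.48%). The loops with peaks at both anchors had a median span of 180 kb, as had all loops. H3K27ac peaks were at both anchors of 80.1% of these 493 (76.4 to 83.4), of 45.5% of the 2848 loops with an early G1 peak at 1 anchor, and of 11.2% of the 10814 with none. LDB1 was at both anchors of 24.7%, 11.9% and 3.13% in the same order. CTCF together with RAD21 was at both anchors of 46.0% of the 493 (41.7 to 50.5), 57.1% of the loops with a peak at 1 anchor and 60.8% of those with none. Of the early G1 peaks themselves 54.6% had H3K27ac and 17.9% had LDB1, so the shares of H3K27ac and LDB1 are in part fixed by how the loops were grouped. The loops were not split by the width of their anchors, and these shares were not computed for loops of the other YY1 lists. At the far anchor of the 2848 loops with an early G1 peak at 1 anchor, 38.1% had an asynchronous peak of no stage list, 17.7% an ana/telophase peak, 4.95% a mid-G1 peak and 45.2% no listed YY1 peak. Of all mid-G1 loops 43.8% had a peak of no stage list at 1 or both anchors, 17.4% an ana/telophase peak and 6.40% a mid-G1 peak. Those shares count either anchor, and shares over single anchors of all loops were not computed. The lists also differ in size. In asynchronous cells 2920 of 12738 loops had an early G1 peak at 1 or both anchors and 427 at both. Of the 493 mid-G1 loops, 208 (42.2%, interval 37.9 to 46.6) were also asynchronous loops, against 39.9% of all mid-G1 loops.

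**Figure D5:**
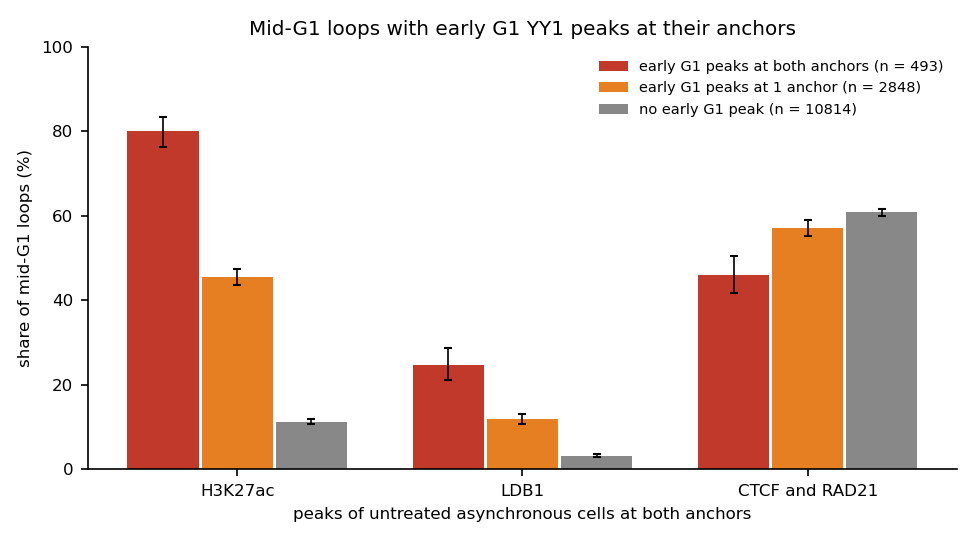
Share of mid-G1 loops (%) with peaks of untreated asynchronous cells at both anchors, for loops with early G1 YY1 peaks at both anchors, at 1 anchor, or at none. Bars start at 0, whiskers are Wilson 95% intervals, and the number of loops is in the legend. H3K27ac was at both anchors of 80.1%, 45.5% and 11.2% of the loops, and CTCF with RAD21 of 46.0%, 57.1% and 60.8%.

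The loops with the most early G1 peaks had 6 at their anchors. One joined chr1:172825001-172830000, with 2 peaks, to chr1:173040001-173045000, with 4, over 215 kb. Another joined chr15:82070001-82080000, with 2, to chr15:82170001-82180000, with 4, over 100 kb, and another joined chr3:152420001-152430000, with 4, to chr3:153320001-153330000, with 2, over 900 kb. A further 12 loops had 5, and the first of them by position joined chr1:69540001-69550000 to chr1:69730001-69740000 and chr1:123220001-123230000 to chr1:123460001-123470000. All 5 of these loops had H3K27ac at both anchors. CTCF was at both anchors of 4 of them, and RAD21 at neither anchor of the loop from chr1:123220001-123230000.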

How the data were processed

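The files used are lists of intervals that the authors deposited, with positions and no score. Per the submitters' processing notes, the build was mm9 and the tools included Bowtie2, deepTools 3.5.1 and MACS2 2.2.7. Not given in the sources used here: the peak threshold, how libraries were combined, what made a peak "emergent" at a stage, and how loops and boundaries were called. Positions were made 1-based. The reference tables at hand are of another build, so peaks were tied to no gene and no sequence is shown, and RNA-seq, TT-seq, Pol2 and domain files were not used here. Overlaps of at least 1 bp were counted with bedtools 2.31.1, and tests were run with SciPy 1.17.1 and checked on simulated lists. Peaks and loops were named by the counts of early G1 peaks in them, as the 5 densest windows of 100 kb and the 5 mid-G1 loops with the most peaks at their anchors, ties by position. The early G1 list, features and tests were chosen with earlier results of these data known. Alternatives were half-peak overlap (at least 50% of the YY1 peak), 200 bp midpoints (loop anchors and boundaries kept their width), autosomes, and peaks also in the untreated YY1 list. Chosen after seeing the data were leaving out chromosome 3, the tests of peaks kept after auxin with all their alternatives, and the use of early G1 peaks also in the untreated list against peaks of no stage list. Distances run between midpoints.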

Additional observations from a re-analysis of the deposited data

Results flagged for a closer look

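The share of peaks called again after auxin differed between the early G1 list and another stage list in 6 of 14 tests, by Fisher's exact test across peaks. Against ana/telophase the odds ratio was 0.107 for YY1, 0.269 for YY1 with the second antibody, 0.185 for YY1 in CTCF-AID cells and 0.658 for H3K27ac, each lower in early G1. Against mid-G1 it was 3.48 for YY1 and 1.38 for YY1 in CTCF-AID cells, both higher in early G1.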

How the results depend on the processing

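Of 67 tests, 62 kept their direction and their side of the threshold with half-peak overlap, 59 with 200 bp midpoints, 66 on autosomes and 64 without chromosome 3, as did 57 of the 63 that could be run on peaks also in the untreated YY1 list. The exceptions follow as odds ratios. Against mid-G1, H3K27ac turned to 0.809 (auxin list 0.746) with midpoints, while the auxin list passed with half-peak overlap (1.14), on autosomes (1.10) and on peaks also in the untreated list (1.13). YY1 of the second antibody after auxin turned to 0.843 with half-peak overlap and 0.833 with midpoints. On peaks also in the untreated list CTCF missed the threshold (0.873, auxin list 0.938) and YY1 in auxin-treated CTCF-AID cells passed (1.37). Without chromosome 3 the auxin CTCF list missed it (0.893) and asynchronous boundaries turned to 1.02. Against peaks of no stage list, LDB1 turned to 0.990 (auxin list 0.987) with half-peak overlap and 0.992 (0.989) with midpoints, and passed on peaks also in the untreated list (1.43, auxin list 1.42) and without chromosome 3 (1.07). For peaks kept after auxin, CTCF against ana/telophase passed with half-peak overlap (1.62) and midpoints (1.63), H3K27ac against ana/telophase missed the threshold with midpoints (0.866), and H3K27ac against mid-G1 turned to 0.770 with midpoints.

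Shares of early G1 peaks moved past their intervals as follows. With half-peak overlap and with 200 bp midpoints, untreated YY1 was at 60.8% and 60.7%, the second antibody at 0.808% and 0.799% after auxin and 22.0% and 22.0% untreated, YY1 in CTCF-AID cells at 47.985% and 47.9% after auxin and 43.7% and 43.6% untreated, CTCF at 10.96% and 10.94% after auxin and 10.0% and 10.0% untreated, RAD21 at 17.9% and 17.8% after auxin and 14.2% and 14.2% untreated, and LDB1 at 12.6% and 12.6% after auxin and 13.0% and 13.0% untreated. H3K27ac was at 52.1% after auxin and 51.5% untreated with half-peak overlap, and at 12.2% and 12.6% with midpoints, since broad peaks were then cut to 200 bp. Mid-G1 loop anchors were at 26.3% with half-peak overlap. On peaks also in the untreated list the shares were 6.31% for YY1 after auxin, 32.5% for the second antibody in untreated cells, and, after auxin and in untreated cells, 68.7% and 63.3% for YY1 in CTCF-AID cells, 18.6% and 16.8% for CTCF, 31.4% and 25.0% for RAD21, 22.3% and 22.9% for LDB1 and 59.8% and 58.7% for H3K27ac, and 28.7% and 25.4% for mid-G1 and asynchronous loop anchors. Without chromosome 3 they were 65.4% for untreated YY1, 25.3% for the second antibody in untreated cells and, after auxin and in untreated cells, 53.9% and 49.1% for CTCF-AID cells and 56.6% and 55.9% for H3K27ac. The cause of the shifts was not tested for the other features.

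No paired analysis was possible because the results come from 1 peak list per condition, without columns for replicates, and leaving out a library was not run for the same reason. Alternatives planned for promoters, motifs, RNA-seq and TT-seq were not run. The depth behind the lists is unknown, so a peak that was not called is not shown to be unbound.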
